A study of Mus musculus with 13 samples.

Results

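The 37 genes described here encode Wnt ligands, the receptors that bind them, the secreted proteins that hold them back or amplify them, and central transducers and reported targets of the pathway. They were chosen by gene symbol, with earlier results of these data known, and are 37 of the 23366 genes in the count table. By role they are 11 ligands, 11 receptors (9 Frizzleds with the co-receptors Lrp5 and Lrp6), 7 secreted antagonists or agonists, and 8 transducers or targets. Their RNA was counted in mouse primary myoblasts and in myotubes made from such cells. Myoblasts were taken from hind limb muscle of pups 2 to 3 days old, of a mixed strain background, and were kept in a serum-rich medium with fibroblast growth factor. Myotubes had been moved for 24 hours to medium with 1% horse serum, in which myoblasts leave the cell cycle and fuse. The genotypes were wild type (WT) and dICR/dICR, in which both alleles lack the imprinting control region of the Igf2 and H19 domain. There were 4 WT myoblast, 2 dICR/dICR myoblast, 5 WT myotube and 2 dICR/dICR myotube libraries. The cells were cultured without nerve or vessel. Whether replicates come from different cultures or pups is not stated in the labels, so p-values measure only the spread between these samples.

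Wnts are lipid-modified secreted proteins that bind a Frizzled receptor on a nearby cell. When a Frizzled is bridged to Lrp5 or Lrp6, the Axin-based complex that destroys beta-catenin is blocked, and beta-catenin (Ctnnb1) enters the nucleus and acts with the DNA-binding factors Lef1, Tcf7 and Tcf7l2. Other Wnts act through Frizzleds without beta-catenin, on planar polarity and calcium. Sfrp proteins and Wif1 bind Wnts outside the cell, Dkk2 acts on the Lrp co-receptors, and the R-spondin Rspo3 raises the number of Frizzleds at the surface. In skeletal muscle the pathway is known for its part in embryonic myogenesis and in the switch of activated muscle stem cells from proliferation to differentiation.

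RefSeq promoter windows, 250 bases before to 50 bases after an annotated start in GRCm38.p6, were at hand for 21 of the 37 genes, as 30 windows in all. Below are windows of a ligand and a receptor that rose on differentiation, Wnt9a and Fzd9, and of a ligand that fell, Wnt5b, each written 5′ to 3′ on the gene's strand. Capitals mark the first match found to CAGCTG, a sequence of the kind bound by myogenic factors, or to CTTTGAT, a form of the sequence bound by Lef1 and the Tcf factors.
Wnt9a, chr11:59306680-59306979, plus strand: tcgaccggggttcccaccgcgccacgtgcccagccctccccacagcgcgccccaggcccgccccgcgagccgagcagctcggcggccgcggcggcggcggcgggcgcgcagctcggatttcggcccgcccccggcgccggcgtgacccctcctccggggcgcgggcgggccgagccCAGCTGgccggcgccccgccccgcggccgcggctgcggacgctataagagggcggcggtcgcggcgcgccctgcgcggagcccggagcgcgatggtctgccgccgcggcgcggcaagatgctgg
Fzd9, chr5:135250998-135251297, minus strand: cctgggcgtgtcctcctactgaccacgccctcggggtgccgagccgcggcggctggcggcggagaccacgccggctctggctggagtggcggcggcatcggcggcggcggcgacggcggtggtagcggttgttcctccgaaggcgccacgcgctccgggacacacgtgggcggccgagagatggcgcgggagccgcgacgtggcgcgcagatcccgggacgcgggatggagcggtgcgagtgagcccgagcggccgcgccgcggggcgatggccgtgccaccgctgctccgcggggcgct
Wnt5b, chr6:119449337-119449636, minus strand: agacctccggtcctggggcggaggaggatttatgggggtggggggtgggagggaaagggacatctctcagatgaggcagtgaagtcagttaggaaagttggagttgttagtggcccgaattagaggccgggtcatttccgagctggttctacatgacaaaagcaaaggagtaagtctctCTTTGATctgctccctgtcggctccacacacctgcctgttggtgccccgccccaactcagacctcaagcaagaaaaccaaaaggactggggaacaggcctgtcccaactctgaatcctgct

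The Wnt9a window is 83.3% G and C with 58 CpG dinucleotides, and the Fzd9 window is 78.0% with 53, whereas the median over all 32851 windows of the table is 52.7% with 7. The Wnt5b window shown, 1 of 3 for that gene and chosen because it holds a match, is 55.0% with 7 CpG, and the other two Wnt5b windows are 53.0% with 4 and 78.0% with 47. CAGCTG, searched on both strands, was found in 3 of the 30 member windows, those of Wnt9a (74 bases before the start), Lef1 and Tcf7, and in 16.3% of all windows. CTTTGAT was found in 2, those of Wnt5b (71 bases before the start) and Wnt11, and in 3.73% of all windows. The related CTTTGAA was in none of the member windows and in 5.14% of all. These matches describe letters in a window and say nothing about binding.

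Library totals ranged from 5.31 to 56.44 M (mega) counts and fell into a deep set of 7 libraries (35.56 to 56.44 M) and a shallow set of 6 (5.31 to 10.91 M). This division was read off the totals and is not part of the study's design. Small nucleolar RNA genes took 0.012 to 0.133% of counts in the deep set and 2.786 to 7.131% in the shallow set. Both dICR/dICR myoblast libraries are shallow and both dICR/dICR myotube libraries deep, WT myoblasts 1 and 2 and WT myotubes 1 to 3 are deep, and the other 4 WT libraries are shallow. The main results on the 37 genes are therefore given over all libraries and, where a set holds both groups, within the set. H19, the check of the genotype label, stood at 2345 to 40500 CPM (counts scaled to a library total of 1 M) in the WT libraries and 52.4 to 71.5 CPM in the dICR/dICR libraries. The muscle identity of the cells was plain: all 8 myoblast markers and all 11 differentiation markers reached 1 CPM in every group. Summed differentiation markers ranged from 5218 to 26110 CPM in WT myoblasts, 4618 to 11420 in dICR/dICR myoblasts, 54360 to 115000 in WT myotubes and 20620 to 45200 in dICR/dICR myotubes. In WT myoblasts they split by depth set, with 6163 and 5218 CPM in the deep libraries and 22350 and 26110 in the shallow ones. H19 split likewise, at 2607 and 2345 CPM against 18490 and 17480. The part of this split in the changes within each set was not tested. Adipocyte markers summed to at most 3.128 CPM, endothelial markers to 6.414 and leukocyte markers to 14.16. In RNA from bulk cultures, fewer cells of a type and less RNA per cell cannot be told apart.

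**Figure D1:**
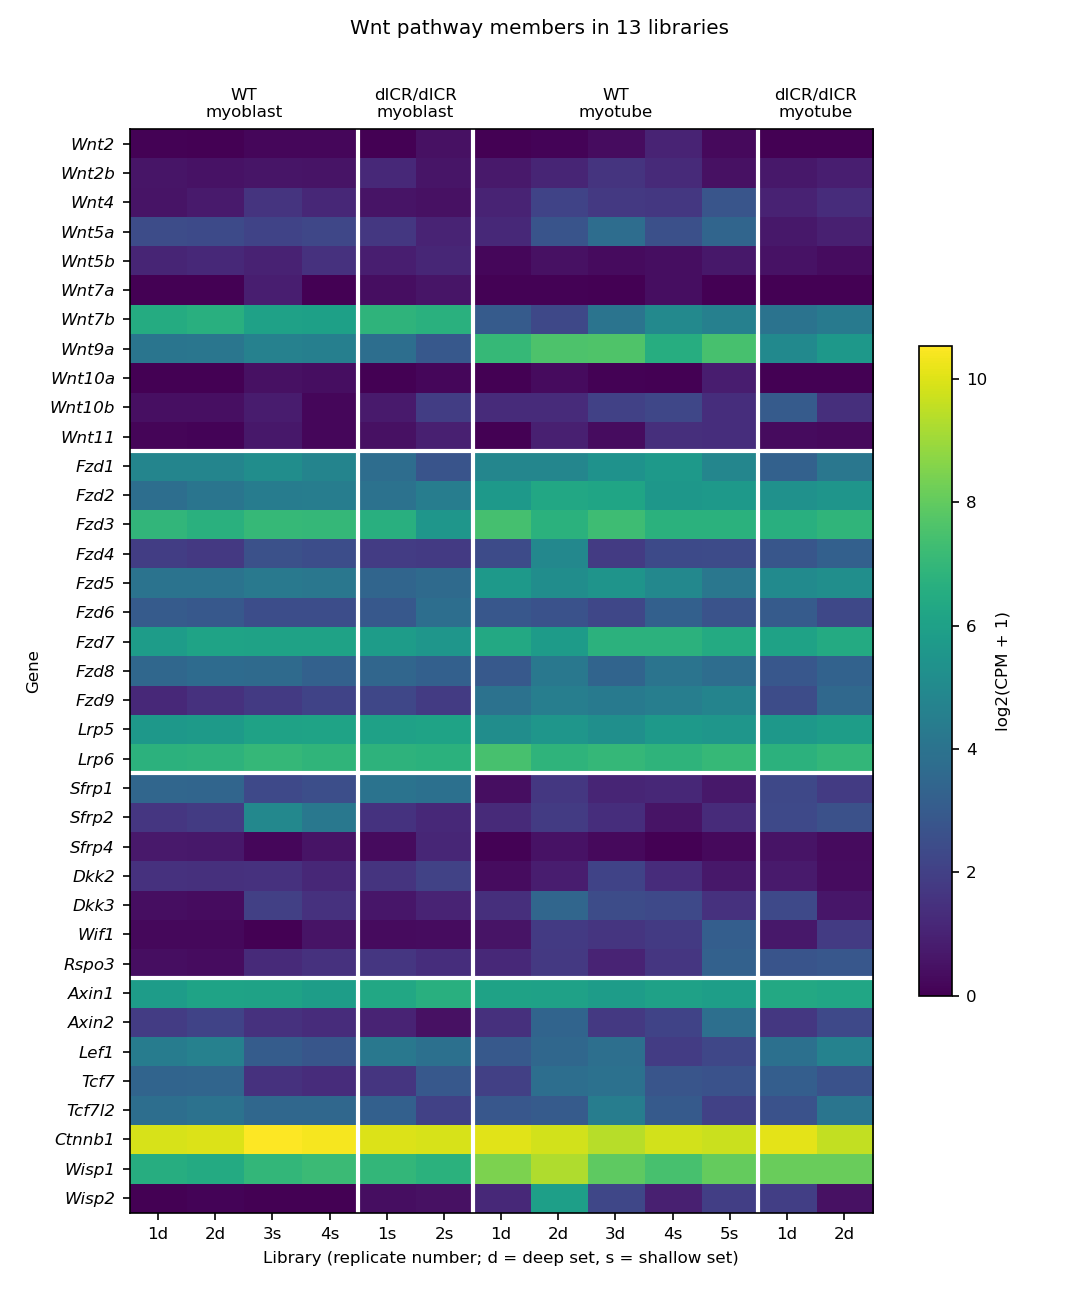
Level of each of the 37 genes (vertical axis, ordered by role: ligands, receptors, antagonists and agonists, transducers and targets) in each of the 13 libraries (horizontal axis, by group; d marks the deep and s the shallow set), as log2 of CPM plus 1. Ctnnb1 is the brightest row in every library, and Wnt7b and Wnt9a exchange brightness between myoblasts and myotubes.

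All 37 genes passed the filter on low counts, although Wnt2, Wnt7a, Wnt10a and Wnt11 did so at no more than 1.69 CPM in any library. Of 20 other Wnt family, antagonist and R-spondin genes in the count table, 8 passed it, so the 37 are not a full family. Per kilobase of exon, the scale used here to compare levels between genes, Ctnnb1 had the highest group mean of the 37 in each of the 4 groups, from 240.9 CPM per kb in WT myotubes to 330.8 in WT myoblasts. Most of the ligand RNA of these cells came from Wnt7b and Wnt9a. Wnt7b made up a mean of 68.0% of ligand RNA per kb in WT myoblasts (59.7 to 76.9% in the 4 libraries) and 6.93% in WT myotubes (1.37 to 16.7% in the 5). Wnt9a made up 24.5% in WT myoblasts (17.7 to 30.7%) and 86.9% in WT myotubes (73.2 to 94.0%). The summed ligand RNA was 24.7 ± 2.6 CPM per kb (SD, n = 4) in WT myoblasts and 54.6 ± 13.1 (SD, n = 5) in WT myotubes, with no overlap. The summed Frizzled RNA was 42.3 ± 3.6 CPM per kb (SD, n = 4) and 72.8 ± 6.9 (SD, n = 5), also without overlap. In both WT groups Fzd7 was the most abundant Frizzled by mean, with 14.16 CPM per kb in WT myoblasts and 19.39 in WT myotubes. The ranges of Fzd7 and Fzd2 overlapped in WT myotubes as shares of Frizzled RNA, at 16.9 to 31.7% and 16.8 to 30.4%, so their order there is within the spread.

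**Figure D2:**
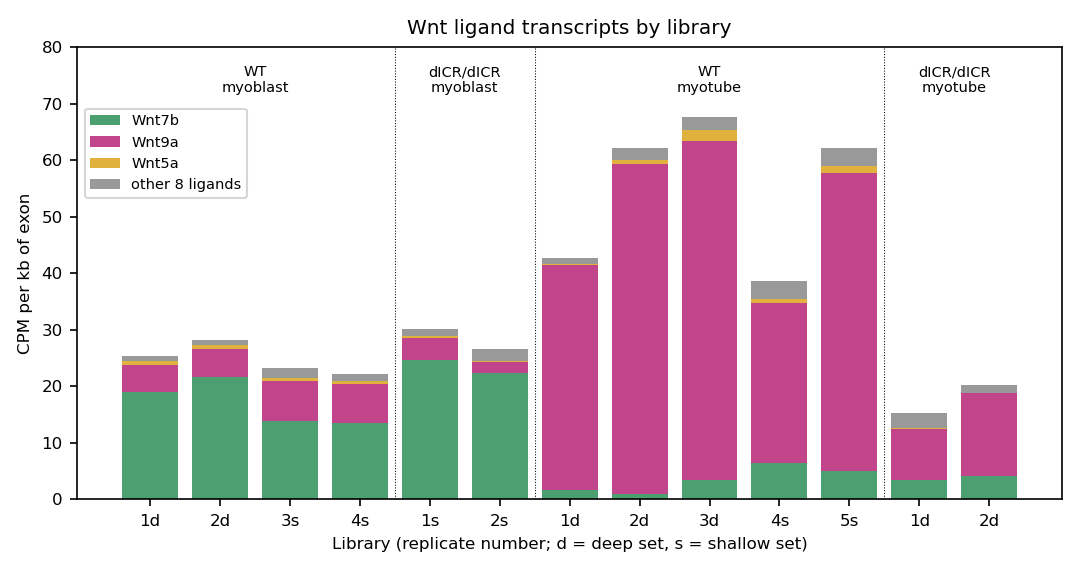
Stacked bars of ligand RNA in CPM per kb of exon (vertical axis) for each of the 13 libraries (horizontal axis, d deep and s shallow), with Wnt7b, Wnt9a, Wnt5a and the other 8 ligands in separate colours. Wnt7b fills most of each myoblast bar and Wnt9a most of each myotube bar, and the dICR/dICR myotube bars, at 15.3 and 20.1, are the shortest.

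When WT myoblasts differentiated, 12 of the 37 genes changed (edgeR quasi-likelihood test, Benjamini-Hochberg adjusted p under 0.05 over the 16537 genes tested), 8 higher and 4 lower, or 32.4%, where 19.1% of all genes tested were called. The higher calls over all genes were 8.86% and the lower 10.2%. The median log2 fold change was 0.45 over the 37 genes and 0.02 over all genes. Among ligands, Wnt9a and Wnt10b rose, and Wnt5b and Wnt7b fell. Among receptors Fzd2, Fzd5 and Fzd9 rose and none fell. Among the secreted modulators Wif1 rose and Sfrp1 and Sfrp2 fell, and among transducers and targets Wisp1 and Wisp2 rose. Within the deep set 15 of the 37 were called (11 higher, 4 lower), against 29.1% of all genes (14.3% higher, 14.7% lower). Within the shallow set 4 were called, Wnt9a, Fzd2 and Fzd9 higher and Sfrp2 lower, against 6.98% of all genes (3.72% higher, 3.25% lower).

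Wnt9a, a ligand known from joint and limb development, stood at 16.2, 16.6, 23.4 and 22.7 CPM in WT myoblasts 1 to 4 and at 132.8, 194.5, 199.9, 94.2 and 175.2 CPM in WT myotubes 1 to 5. Every myotube library lay far above every myoblast library. The log2 fold change was 3.02 ± 0.31 (SE; adjusted p = 0.000294), with 3.42 ± 0.38 within the deep set and 2.54 ± 0.39 within the shallow set (adjusted p = 0.000143 and 0.00608). Wnt7b, a ligand that can signal with or without beta-catenin, went the other way. It stood at 87.2, 99.9, 64.1 and 62.2 CPM in WT myoblasts and at 7.09, 3.93, 15.5, 29.7 and 23.0 CPM in WT myotubes. The groups did not overlap, and the log2 fold change was -2.33 ± 0.47 (adjusted p = 0.00663). Within the deep set Wnt7b fell by 3.40 ± 0.42 on the log2 scale (adjusted p = 0.000253), but within the shallow set its change of -1.26 ± 0.47 did not pass (adjusted p = 0.124). The 2 shallow WT myotube libraries had more Wnt7b than the 3 deep ones, by 1.57 ± 0.42 on the log2 scale (adjusted p = 0.0291). The ratio of Wnt9a to Wnt7b CPM, given as a description, was 0.166 to 0.365 in WT myoblasts and 3.17 to 49.5 in WT myotubes.

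Wnt10b, a ligand of the beta-catenin branch known to hold mesenchymal cells from the fat lineage, stood at 0.336, 0.350, 0.740 and 0.153 CPM in WT myoblasts and at 1.49, 1.48, 3.15, 3.69 and 1.63 CPM in WT myotubes. All myotube libraries were above all myoblast libraries, at low levels throughout. The log2 fold change was 2.54 ± 0.63 (adjusted p = 0.0165), with 2.56 within the deep set (adjusted p = 0.0326) and 2.52 within the shallow set (adjusted p = 0.147). The call over all libraries was lost without WT myoblast 1 or without WT myoblast 2 (adjusted p = 0.0554 and 0.0558). Wnt5b, a ligand mostly tied to signalling without beta-catenin, stood at 1.16, 1.32, 0.987 and 1.84 CPM in WT myoblasts and at 0.152, 0.376, 0.240, 0.308 and 0.611 CPM in WT myotubes. Again the groups did not overlap, with a log2 fold change of -2.08 ± 0.44 (adjusted p = 0.00819) that was -2.24 within the deep set (adjusted p = 0.00741) and -1.64 within the shallow set (adjusted p = 0.187). Wnt4, a ligand with a known role in kidney formation, passed within the deep set but not over all libraries. Its values were 0.485, 0.700, 1.97 and 1.23 CPM in WT myoblasts and 1.07, 3.35, 2.38, 2.31 and 5.91 CPM in WT myotubes. WT myotube 1 lay below WT myoblasts 3 and 4, and the log2 fold change was 1.50 ± 0.55 over all libraries (adjusted p = 0.0757) and 1.93 ± 0.58 within the deep set (adjusted p = 0.0276). Wnt2, Wnt2b, Wnt5a, Wnt7a, Wnt10a and Wnt11 did not pass the test in WT differentiation over all libraries or within a set.

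Of the 9 Frizzleds, the 3 that were called on WT differentiation were all higher. Fzd9, a Frizzled that was far from the most abundant in myoblasts, stood at 1.32, 1.87, 2.47 and 3.37 CPM in WT myoblasts and at 14.8, 21.5, 19.3, 21.5 and 25.9 CPM in WT myotubes. Its share of Frizzled RNA per kb went from a mean of 2.30% to 12.5%. The log2 fold change of 3.23 ± 0.37 (adjusted p = 0.000543) was 3.53 ± 0.43 within the deep set and 3.03 ± 0.46 within the shallow set (adjusted p = 0.000231 and 0.00608). Fzd2 stood at 13.0, 15.9, 20.4 and 21.0 CPM in WT myoblasts and at 48.9, 79.2, 72.2, 46.8 and 51.5 CPM in WT myotubes. It rose without overlap, by 1.77 ± 0.24 over all libraries (adjusted p = 0.000921), 2.21 within the deep set (adjusted p = 0.000194) and 1.25 within the shallow set (adjusted p = 0.0227). Fzd5 stood at 15.4, 15.4, 18.4 and 17.0 CPM in WT myoblasts and at 50.8, 34.6, 42.3, 29.4 and 17.3 CPM in WT myotubes. WT myotube 5 lay inside the myoblast range, and the log2 fold change was 1.08 ± 0.26 (adjusted p = 0.0154), with 1.47 ± 0.26 within the deep set (adjusted p = 0.00208) and 0.40 ± 0.29 within the shallow set (adjusted p = 0.432).

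The other receptors did not pass the test on WT differentiation, over all libraries or within a set. Fzd1, Fzd3, Fzd6, Fzd7 and Fzd8 had log2 fold changes of 0.01 to 0.45, and the co-receptors Lrp5 and Lrp6 of -0.46 ± 0.17 (adjusted p = 0.0713) and 0.18 ± 0.17 (adjusted p = 0.49). Fzd3, Fzd4, Fzd6 and Lrp6 differed in sign between the sets. They were at 0.34, 2.24, -0.42 and 0.34 within the deep set and -0.32, -0.20, 0.58 and -0.01 within the shallow set. Fzd4, named here after its values were seen, was 29.4 CPM in WT myotube 2 and 2.57 to 4.28 CPM in the other 4 WT myotube libraries. The same library held the highest Pdgfrb of all 13, a pericyte marker, at 79.8 CPM against at most 12.4 elsewhere. Among the other smooth muscle and pericyte markers, Acta2 (4402 CPM), Notch3 (141.6 CPM) and Cnn1 (2.05 CPM) were also highest there of the WT myotube libraries. Rgs5 (0.0578 CPM), Cspg4 (3.41 CPM) and Myh11 (0.636 CPM) were not. That library also had a summed fibroblast list of 902.3 CPM, of which Col3a1 made 888.5. Of the other 11 fibroblast markers, Ly6a and Osr1 were also higher there than in any other WT myotube library, at 7.199 CPM against at most 2.12 and 4.45 CPM against at most 2.77, while Pdgfra was at 0.549 CPM, Dcn at 0.463 CPM and the remaining 7 at 0.318 CPM or less. Their part in the Fzd4 value was not tested.

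**Figure D3:**
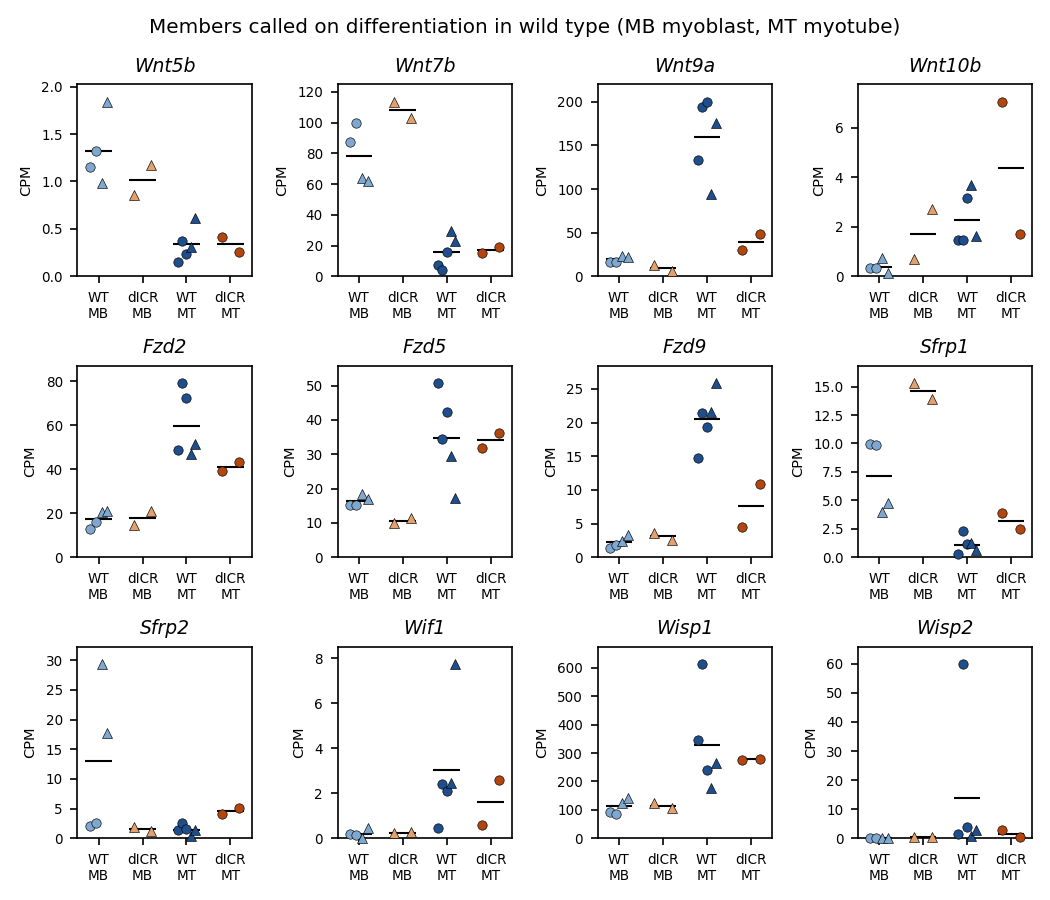
CPM (vertical axes, each from 0) of the 12 genes called on WT differentiation, by group (MB myoblast, MT myotube), with a point per library, circles for the deep and triangles for the shallow set, and a bar at the group mean. Wnt9a, Fzd2 and Fzd9 have all 5 WT myotube points above all 4 WT myoblast points, and the single WT myotube point of Wisp2 near 60 is replicate 2.

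The secreted antagonists moved in different directions. Sfrp1, which binds Wnts and Frizzleds, stood at 9.98, 9.87, 3.95 and 4.75 CPM in WT myoblasts and at 0.305, 2.28, 1.13, 1.23 and 0.611 CPM in WT myotubes. It fell without overlap, by 2.65 ± 0.51 on the log2 scale (adjusted p = 0.00512), with -2.98 within the deep set (adjusted p = 0.00294) and -2.19 within the shallow set (adjusted p = 0.104). Sfrp2, its close relative, stood at 2.15, 2.55, 29.4 and 17.8 CPM in WT myoblasts 1 to 4 and at 1.37, 2.52, 1.61, 0.462 and 1.43 CPM in WT myotubes. The high values belong to the 2 shallow myoblast libraries, which exceeded the deep ones by 3.33 ± 0.49 on the log2 scale (adjusted p = 0.000671). The change over all libraries was -3.06 ± 0.73 (adjusted p = 0.014), that within the shallow set -4.69 ± 0.58 (adjusted p = 0.00322) and that within the deep set -0.35 ± 0.41 (adjusted p = 0.549). Without WT myoblast 3 the change over all libraries was -2.26 (adjusted p = 0.0422). Both shallow WT myoblast libraries also had more Myog, at 1179 and 1196 CPM against 146.2 and 141.5 in the deep pair. The part of that difference in the Sfrp2 values was not tested.

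Wif1, an inhibitor that binds Wnts directly, had 10, 8, 0 and 3 counts in WT myoblasts, or at most 0.460 CPM, and 0.457, 2.43, 2.09, 2.46 and 7.74 CPM in WT myotubes. WT myotube 1 lay within the myoblast range. Wif1 rose, with a log2 fold change of 3.96 ± 0.91 (adjusted p = 0.0116), with 3.25 within the deep set (adjusted p = 0.0272) and 4.55 within the shallow set (adjusted p = 0.0521). It was 3.31 without WT myotube 5 (adjusted p = 0.0191). Dkk3, a secreted relative of the Dkk antagonists, stood at 0.317, 0.292, 2.96 and 1.84 CPM in WT myoblasts and at 1.68, 10.1, 4.40, 4.002 and 1.83 CPM in WT myotubes. The groups overlapped through the shallow myoblast libraries, so that the change was 1.84 ± 0.87 over all libraries (adjusted p = 0.16) and 4.13 ± 0.96 within the deep set (adjusted p = 0.00837). Rspo3, the agonist, stood at 0.317, 0.272, 1.36 and 1.84 CPM in WT myoblasts and at 1.30, 2.34, 1.06, 2.16 and 8.56 CPM in WT myotubes. The groups overlapped, and Rspo3 likewise passed within the deep set, with 2.39 ± 0.59 (adjusted p = 0.0116), but not over all libraries, with 1.80 ± 0.76 (adjusted p = 0.12). Sfrp4 and Dkk2, both at 3.39 CPM or less in every WT library, were not called.

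Downstream, Wisp1, a secreted matrix-associated protein reported as a Wnt target, stood at 94.3, 86.6, 125.3 and 143.5 CPM in WT myoblasts and at 347.0, 613.4, 241.1, 176.7 and 266.4 CPM in WT myotubes. Wisp1 rose without overlap, by 1.55 ± 0.34 (adjusted p = 0.00905), with 2.15 ± 0.35 within the deep set (adjusted p = 0.00126) and 0.72 ± 0.36 within the shallow set (adjusted p = 0.249). Its relative Wisp2 had 0, 4, 0 and 0 counts in WT myoblasts and 35, 2073, 155, 6 and 14 counts in WT myotubes. In CPM the WT myotube values were 1.33, 59.9, 3.73, 0.924 and 2.85, of which replicate 2, the library with the high Pdgfrb and Col3a1 given above, is far the highest. The fitted log2 fold change of 8.57 ± 1.84 (adjusted p = 0.00853) rests on those 4 myoblast counts and is no bound. It passed within the deep set but not within the shallow set (adjusted p = 0.0102 and 0.274). Over all libraries it was 5.99 without WT myotube 2, 11.4 without WT myoblast 2 and 7.92 without WT myoblast 1, and was called in each case (adjusted p = 0.0027, 0.0403 and 0.0328).

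Lef1, a nuclear partner of beta-catenin, stood at 20.7, 23.7, 7.401 and 6.13 CPM in WT myoblasts and at 6.78, 10.4, 13.4, 2.62 and 3.67 CPM in WT myotubes. In both groups the shallow libraries were lower than the deep ones, with a log2 difference of -1.71 in each (adjusted p = 0.00936 in myoblasts and 0.0133 in myotubes). The differentiation change was -0.96 ± 0.51 over all libraries (adjusted p = 0.214), -1.12 ± 0.33 within the deep set (adjusted p = 0.025) and -1.12 ± 0.42 within the shallow set (adjusted p = 0.128). Ctnnb1 itself ranged from 963.2 to 1481 CPM in WT myoblasts and from 671.7 to 1067 CPM in WT myotubes, with a change of -0.46 ± 0.22 that did not pass (adjusted p = 0.176). Axin2, a widely used readout of beta-catenin activity, had 1.53 to 3.40 CPM in WT myoblasts and 1.71 to 13.4 CPM in WT myotubes, and its change of 1.32 ± 0.61 did not pass either (adjusted p = 0.155). Axin2 and Ctnnb1 were singled out after their values were seen. Axin1, Tcf7 and Tcf7l2 were also not called on WT differentiation, over all libraries or within a set. Between shallow and deep WT myoblasts, 5 of the 37 genes differed (Wnt7a, Sfrp2 and Rspo3 higher in shallow, Lef1 and Tcf7 lower) where 22.1% of all genes did. In WT myotubes 2 differed, Wnt7b higher and Lef1 lower, where 13.3% of all genes did.

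Markers of the other cell types a muscle culture could hold were compared between the WT groups. The 7 smooth muscle and pericyte markers summed to 123.1 to 515.5 CPM in WT myoblasts and 2188 to 4629 CPM in WT myotubes, but Acta2 alone, which differentiating muscle also expresses, made up 2116 to 4402 CPM of the latter. Pdgfrb, a pericyte marker, was at 0.247 CPM or less in WT myoblasts and at 0, 79.8, 12.4, 10.6 and 5.30 CPM in WT myotubes 1 to 5. Cspg4, another, was at 0.224 to 3.98 CPM in WT myoblasts and at 0.838, 3.41, 11.5, 41.7 and 28.5 CPM in WT myotubes. Rgs5 went the other way, from 0.932 to 17.1 CPM in WT myoblasts to 1.08 CPM or less in WT myotubes, and Myh11 was at 7.74 CPM or less in WT myotubes. The 6 Schwann cell markers summed to 40.4 to 159.2 CPM and 308.7 to 885.4 CPM, nearly all of it Erbb3, with Sox10 at 0.924 CPM or less in every WT library. The 12 fibroblast markers summed to 223.5 to 431.6 CPM in WT myoblasts and 186.3 to 902.3 CPM in WT myotubes. The part of these cells in the Wnt values was not tested.

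In dICR/dICR cells, differentiation was measured with 2 libraries a side, and the myoblast pair is shallow and the myotube pair deep, so that differentiation and depth set cannot be told apart there. None of the 37 genes was called, where 0.145% of all genes were. At an unadjusted p under 0.05 there were 10 of the 37 and 3172 of all 16537 genes, and DESeq2 called 4 (7.25% of all genes) and limma voom 0 (0.593% of all genes). With the depth set as a term 3 were called (Rspo3, Sfrp1 and Wnt9a; 7.63% of all genes), and with only the dICR/dICR libraries fitted 6 (14.2% of all genes). Wnt9a stood at 12.9 and 6.52 CPM in dICR/dICR myoblasts and at 30.6 and 48.6 CPM in dICR/dICR myotubes, a log2 fold change of 2.02 ± 0.43 (adjusted p = 0.0702). Wnt7b stood at 113.4 and 103.2 CPM and at 15.2 and 19.1 CPM, a change of -2.66 ± 0.73 (adjusted p = 0.118). Neither gene's groups overlapped, and each value has the sign it has in WT. Fzd5 stood at 9.93 and 11.3 CPM and at 31.9 and 36.2 CPM (1.68 ± 0.40, adjusted p = 0.0767). Fzd2 stood at 14.8 and 21.1 CPM and at 39.0 and 43.4 CPM (1.20 ± 0.34, adjusted p = 0.124). Sfrp1 stood at 15.3 and 13.9 CPM and at 3.89 and 2.52 CPM (-2.19 ± 0.75, adjusted p = 0.179).

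As shares of ligand RNA per kb, Wnt7b made up 81.9 and 84.1% in dICR/dICR myoblasts 1 and 2 and 21.5 and 20.5% in dICR/dICR myotubes 1 and 2, and Wnt9a 12.9 and 7.35% and then 60.1 and 72.5%. In dICR/dICR myotube 1, Wnt10b made up a further 13.6%, against 2.81% or less in the WT libraries. The ratio of Wnt9a to Wnt7b CPM was 0.114 and 0.0631 in dICR/dICR myoblasts and 2.01 and 2.55 in dICR/dICR myotubes. The ratios of the dICR/dICR libraries were thus below the lowest WT value in each cell type, 0.166 in myoblasts and 3.17 in myotubes. Rspo3 stood at 2.19 and 1.56 CPM in dICR/dICR myoblasts and at 5.74 and 6.27 CPM in dICR/dICR myotubes. Wnt10b had 0.704 and 2.74 CPM and then 7.05 and 1.71 CPM, so its groups overlapped. Wisp1, at 125.3 and 105.0 CPM and then 276.1 and 280.1 CPM, had a change of 1.27 ± 0.49 (adjusted p = 0.209). Sfrp2, which fell in WT, stood at 1.95 and 1.30 CPM in dICR/dICR myoblasts and at 4.03 and 5.08 CPM in dICR/dICR myotubes, a change of 1.47 ± 1.08 (adjusted p = 0.466) with the opposite sign. Fzd9 stood at 3.67 and 2.61 CPM and then 4.49 and 10.8 CPM (1.28 ± 0.50, adjusted p = 0.212). Wnt5b stood at 0.860 and 1.17 CPM in dICR/dICR myoblasts and 0.418 and 0.261 CPM in dICR/dICR myotubes. Wif1 had 0.235 and 0.261 CPM and then 0.599 and 2.59 CPM. Wisp2 had 0.313 and 0.391 CPM and then 2.91 and 0.380 CPM, with overlap.

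The difference between the differentiation changes of the 2 genotypes was tested directly. None of the 37 genes was called and 0.0% of all genes were. At an unadjusted p under 0.05 there were 4 of the 37 and 1643 of all 16537 genes, and DESeq2 and limma voom called 0 of the 37 (0.435% and 0.0% of all genes). The median over the 37 genes was -0.21 and over all genes 0.04. For Wnt9a the difference was -0.999 ± 0.50 (adjusted p = 0.5), for Fzd9 -1.95 ± 0.60 (adjusted p = 0.495) and for Sfrp2 4.53 ± 1.34 (adjusted p = 0.495). A difference in response between genotypes was therefore not shown for any of the 37 genes. This contrast rests on 2 dICR/dICR libraries a cell type.

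**Figure D4:**
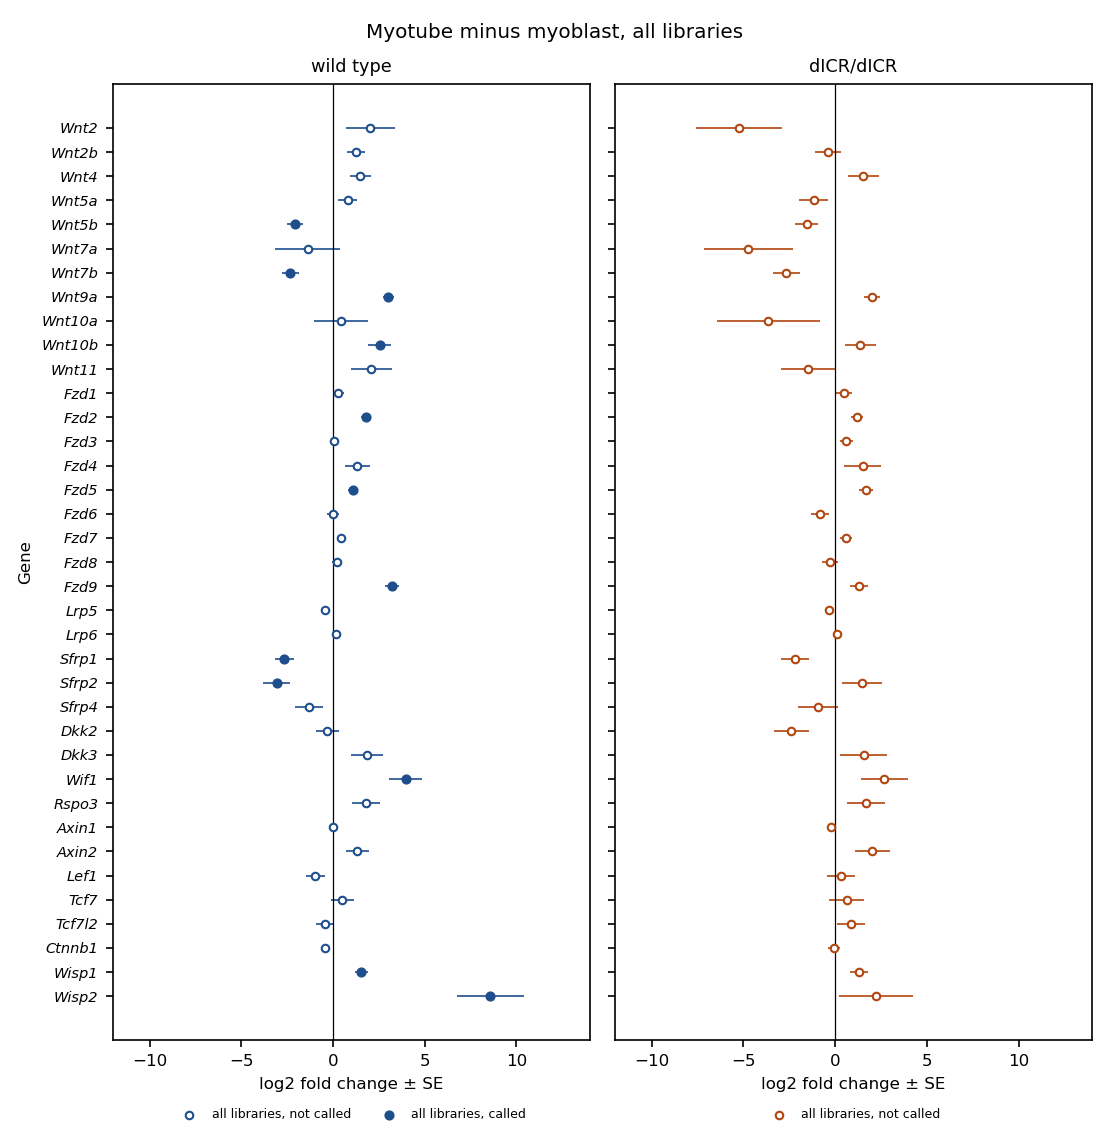
Log2 fold change from myoblast to myotube (horizontal axis, with bars of 1 SE) for the 37 genes (vertical axis) in wild type (left) and dICR/dICR (right), over all libraries. Filled points are called: 12 in wild type, from Sfrp2 at -3.06 to Wisp2 at 8.57, and none in dICR/dICR.

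Between genotypes, myotubes gave 1 call among the 37 genes, Wnt9a, which was lower in dICR/dICR, where 0.556% of all genes were called and 0.224% were called lower. The 5 WT myotube libraries (94.2 to 199.9 CPM) all lay above the 2 dICR/dICR libraries (30.6 and 48.6 CPM). The log2 fold change was -2.01 ± 0.39 (adjusted p = 0.0442), and within the deep set, against WT myotubes 1 to 3, it was -2.15 ± 0.36 (adjusted p = 0.011). That call over all libraries is close to the threshold: it was lost without any 1 of 9 of the 13 libraries (WT myoblasts 1 to 4, WT myotubes 1, 3 and 5, and either dICR/dICR myotube), with the highest adjusted p of 0.751 without dICR/dICR myotube 1, and the log2 fold change then ranged from -2.38 to -1.72. Summed differentiation markers were also lower in the same dICR/dICR libraries (20620 and 45200 CPM against 54360 to 115000 in WT myotubes), as was Myog, at 1253 and 1669 CPM against 2497 to 6412 CPM. Their part in the Wnt9a difference was not tested. Within the deep set Wnt9a was again the sole member called, where 3.63% of all genes were. DESeq2 called 4 (6.77% of all genes), namely Wnt9a, Fzd1, Fzd9 and Wnt5a. Limma voom called 3 (2.66%), namely Wnt9a, Fzd1 and Fzd9. A model with a depth-set term called 3 (2.57%), namely Wnt9a, Wnt5a and Rspo3. Wnt9a did not pass with library size alone, without a filter on low counts, with only the myotube libraries fitted or with the replicate number as a block (adjusted p = 0.059, 0.0537, 0.152 and 0.175), and passed in 9 of 22 alternatives in all, with the same sign in each of the 22.

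Wnt5a, a ligand of the branch without beta-catenin, is named after its values were seen. It stood at 1.30, 5.58, 12.7, 4.93 and 9.78 CPM in WT myotubes and at 0.618 and 0.879 CPM in dICR/dICR myotubes. The groups did not overlap, but WT myotube 1 came close, and the log2 fold change of -3.19 ± 0.76 did not pass (adjusted p = 0.0843; -3.13 ± 0.79 within the deep set, adjusted p = 0.0528). It passed without WT myotube 1 or without WT myotube 2 (adjusted p = 0.0287 and 0.0362). Fzd9, at 4.49 and 10.8 CPM in dICR/dICR myotubes, lay below the whole WT myotube range of 14.8 to 25.9 CPM, with a log2 fold change of -1.42 ± 0.43 that also did not pass (adjusted p = 0.143; -1.27 ± 0.39 within the deep set, adjusted p = 0.0905). Rspo3, at 5.74 and 6.27 CPM, lay above 4 of the 5 WT myotube libraries and below the fifth at 8.56 CPM (1.03 ± 0.81, adjusted p = 0.535; 1.94 ± 0.51 within the deep set, adjusted p = 0.0609). Sfrp2, at 4.03 and 5.08 CPM, and Sfrp1, at 3.89 and 2.52 CPM, lay above all 5 WT myotube values of each gene without passing the test (adjusted p = 0.349 and 0.238). Ligand RNA in all was 15.3 and 20.1 CPM per kb in dICR/dICR myotubes, below the WT myotube range of 38.7 to 67.6. Wnt9a was the largest part of each sum, at 9.19 and 14.6 CPM per kb against 28.3 to 60.1. The lower sums are therefore not separate from the Wnt9a difference and do not show that the other ligands were lower. Frizzled RNA was 45.2 and 57.9 CPM per kb, below the WT range of 65.4 to 82.8. The median log2 difference was -0.31 over the 37 genes and -0.06 over all genes.

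In myoblasts none of the 37 genes was called between genotypes, where 0.0302% of all genes were. H19 itself was not called over all libraries (-7.35 ± 1.13, adjusted p = 0.0562), although it was within the shallow set (-8.17 ± 0.52, adjusted p = 5.35e-05). The lack of calls over all libraries therefore does not show that the 37 genes are unchanged. At an unadjusted p under 0.05 there were 6 of the 37 and 2009 of all 16537 genes, and DESeq2 called 3 (Axin1, Fzd1 and Sfrp2; 2.81% of all genes) and limma voom 0 (0.0544%). Within the shallow set, which holds WT myoblasts 3 and 4 and both dICR/dICR myoblast libraries, 2 were called, Fzd1 and Sfrp2, both lower in dICR/dICR, where 5.25% of all genes were called and 3.31% were called lower. Fzd1, a Frizzled, stood at 26.6, 26.6, 35.3 and 25.7 CPM in WT myoblasts and at 12.6 and 5.60 CPM in dICR/dICR myoblasts. The dICR/dICR values did not overlap with WT, and the change was -1.64 ± 0.42 with all libraries (adjusted p = 0.175) and -1.73 ± 0.45 within the shallow set (adjusted p = 0.0497). In myotubes Fzd1 again did not overlap, with 27.9, 27.3, 40.9, 51.1 and 27.9 CPM in WT and 8.63 and 17.0 CPM in dICR/dICR, and its change of -1.45 ± 0.40 did not pass (adjusted p = 0.113; -1.32 within the deep set, adjusted p = 0.0968).

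Sfrp2 in dICR/dICR myoblasts stood at 1.95 and 1.30 CPM. That is below the shallow WT pair (29.4 and 17.8 CPM) and near the deep WT pair (2.15 and 2.55 CPM). The log2 fold change was -2.96 ± 1.06 over all libraries (adjusted p = 0.31) and -3.83 ± 0.52 within the shallow set (adjusted p = 0.0049). Differentiation markers differed the same way within that set, with Myog at 401.7 and 150.5 CPM in dICR/dICR against 1179 and 1196 CPM in WT myoblasts 3 and 4, and their part in the Sfrp2 difference was not tested. Wnt9a was lower in dICR/dICR myoblasts than in each WT myoblast library, with -1.01 ± 0.38 (adjusted p = 0.33) and -1.23 ± 0.39 within the shallow set (adjusted p = 0.0869), neither of which passed. Lef1, at 17.4 and 13.7 CPM, lay between the deep and the shallow WT myoblast pairs. Wnt7b had the same order as Sfrp1, with both dICR/dICR myoblast values above every WT myoblast value, and neither passed (adjusted p = 0.762 and 0.491). The myotube comparison has WT libraries in common with WT differentiation, as does the myoblast comparison, so these results are not independent of one another.

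**Figure D5:**
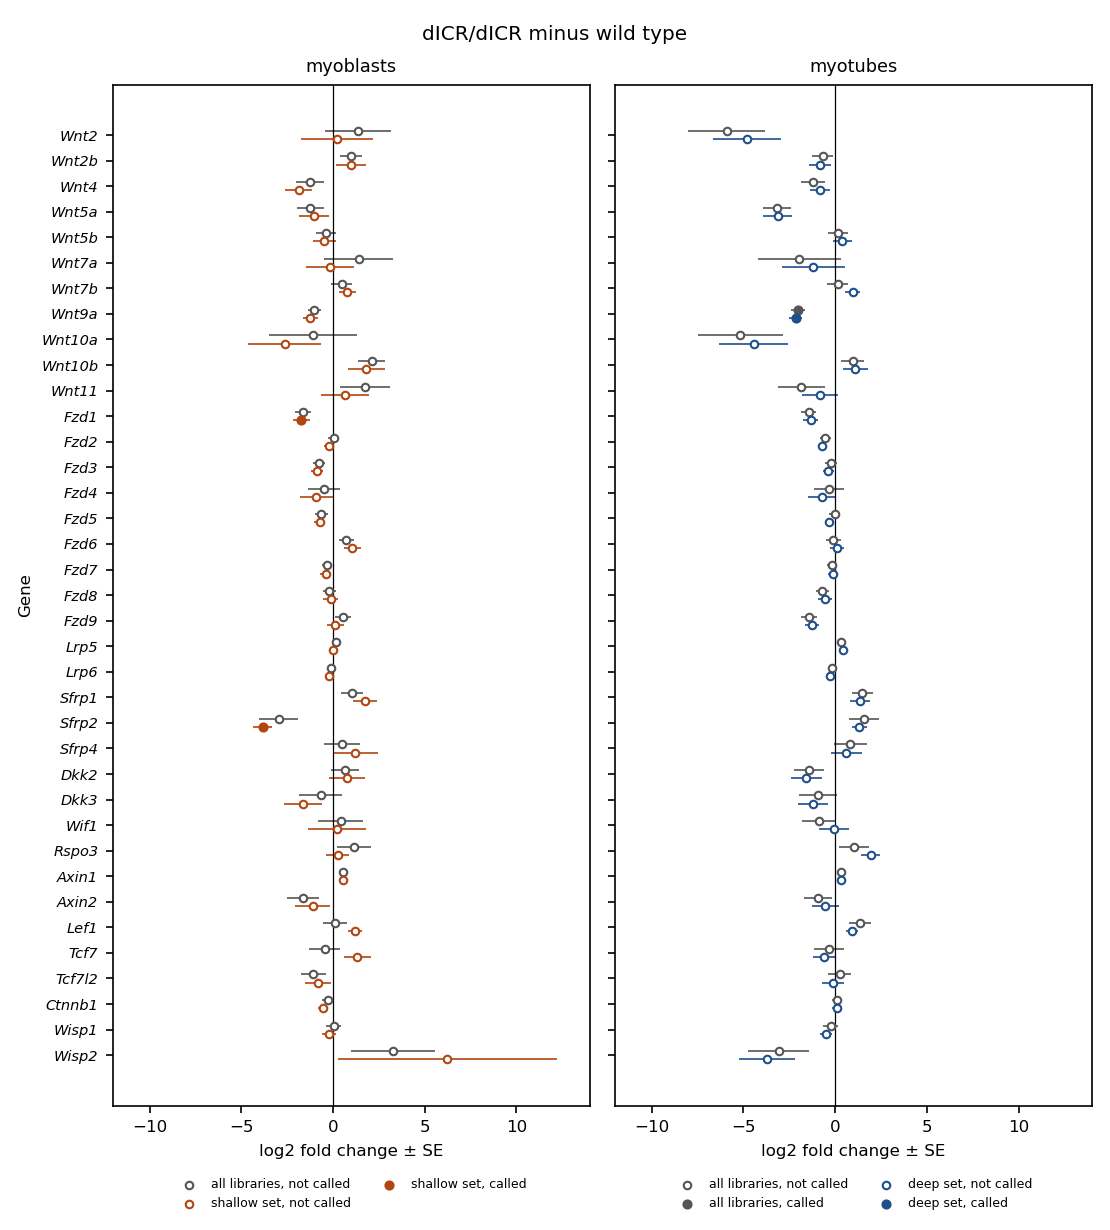
Log2 fold change of dICR/dICR over wild type (horizontal axis, with bars of 1 SE) for the 37 genes (vertical axis) in myoblasts (left) and myotubes (right), over all libraries (grey) and within the 1 depth set that holds both genotypes (colour). Filled points are called: Wnt9a in myotubes at -2.01 and -2.15, and Fzd1 and Sfrp2 in myoblasts at -1.73 and -3.83 within the shallow set.

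The rest of the pathway was followed through 6 further gene lists, some of which share genes, so their counts are not separate. Apcdd1 is counted both under receptor turnover and among reported targets of beta-catenin. Nkd1, called within the deep set, is counted both under cytoplasmic transducers and among those targets. In WT differentiation, none of the 8 tested of 20 other Wnt, antagonist and R-spondin genes was called over all libraries. Within the deep set the ligands Wnt16 and Wnt6 were higher (3.62 and 3.46, adjusted p = 0.0249 and 0.0331) and the antagonist Sost lower (-2.77, adjusted p = 0.0177), and within the shallow set none was called. Of 15 genes for Wnt secretion and receptor turnover, 1 rose and 4 fell (3 and 3 within the deep set, 1 and 1 within the shallow set). Lgr4, a receptor for R-spondins, rose by 1.93 ± 0.20 on the log2 scale (adjusted p = 0.00029). The 4 that fell were Apcdd1, a membrane inhibitor of Wnt signalling (-2.19 ± 0.46, adjusted p = 0.00718), the heparan sulfate carrier Sdc1 (-1.94 ± 0.48, adjusted p = 0.0158), and the sulfatases Sulf2 (-1.85 ± 0.51, adjusted p = 0.0253) and Sulf1 (-1.37 ± 0.29, adjusted p = 0.00738), which trim heparan sulfate. Of 25 cytoplasmic transducers and destruction complex genes, 5 rose and none fell, with a list median of 0.29 beside 0.02 over all genes. These calls are to be read against the 19.1% of all genes called. Within the deep set 11 of the 25 rose and 1 fell (Caprin2, -0.86, adjusted p = 0.019), where 29.1% of all genes were called, and within the shallow set 2 rose (Ccdc88c and Amer1), where 6.98% were. Among the 5 were Ccdc88c (3.79 ± 0.59, adjusted p = 0.00192) and Dact1 (3.07 ± 0.58, adjusted p = 0.00458), which bind Dishevelled, Amer1, a partner of Apc (1.00 ± 0.20, adjusted p = 0.00663), and the kinase Csnk1a1 (0.93 ± 0.20, adjusted p = 0.00813), which marks beta-catenin for destruction.

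Among 18 nuclear partners of beta-catenin, Tle4, a co-repressor, rose by 1.51 ± 0.42 (adjusted p = 0.0271). Cby1, which binds beta-catenin and holds it back, and the co-repressor Tle1 fell by 1.26 ± 0.19 and 1.11 ± 0.19 (adjusted p = 0.0016 and 0.00307). Of 26 genes of the branches without beta-catenin, 5 rose, among them Daam2, a formin that acts on actin (3.10 ± 0.55, adjusted p = 0.00343), the calcium-responsive factor Nfatc2 (2.74 ± 0.70, adjusted p = 0.0189) the kinase Camk2a (2.29 ± 0.37, adjusted p = 0.00212) and Daam1 (1.08 ± 0.27, adjusted p = 0.0162). The planar polarity gene Vangl2 fell by 1.03 ± 0.25 (adjusted p = 0.016). Within the deep set 1 nuclear partner rose and 4 fell, and 6 genes of the branches without beta-catenin rose and 2 fell, and within the shallow set the counts were 0 and 2, and 2 and 1. Of all genes tested, 8.86% were called higher and 10.2% lower over all libraries. The shares were 14.3% and 14.7% within the deep set, and 3.72% and 3.25% within the shallow set. The counts of these lists and the next are to be read against them. Of 24 reported targets of beta-catenin tested, 2 rose and 8 fell (3 and 9 within the deep set, 2 and 4 within the shallow set), with a list median of -0.43 beside 0.02 over all genes. The largest falls were in Ccnd1 (cyclin D1, -4.39 ± 0.36, adjusted p = 0.000141), Fosl1 (-3.59 ± 0.66, adjusted p = 0.00408), Birc5 (survivin, -2.79 ± 0.74, adjusted p = 0.0221) and Cd44 (-2.44 ± 0.32, adjusted p = 0.000822). Ccnd1 and Birc5 are cell cycle genes under many other controls as well. Tnfrsf19, also on that list, rose by 2.12 ± 0.51 (adjusted p = 0.0141). Sulf1, Vangl2 and Tnfrsf19 are beyond the 4 genes a list that the naming rule takes, and they and the genes named only within a set were added after their values were seen.

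In dICR/dICR differentiation, where 0.145% of all genes were called, Ccnd1 fell by 3.44 ± 0.54 (adjusted p = 0.0351), as it did in WT. Between genotypes no gene of the lists was called over all libraries. Within the shallow myoblasts Sulf1 (-2.39 ± 0.24, adjusted p = 0.00151), Ccdc88c (-2.10 ± 0.46, adjusted p = 0.0269) and Kremen1, a receptor for Dkk proteins (-0.97 ± 0.24, adjusted p = 0.04), were lower in dICR/dICR. The kinase Prkca was higher there (1.58 ± 0.40, adjusted p = 0.045). Of all genes tested, 5.25% were called in that comparison and 3.31% were called lower. Within the deep myotubes Tbx3, a reported target of beta-catenin, was lower in dICR/dICR (-3.55 ± 0.84, adjusted p = 0.0423), and the co-repressor Ctbp2 was higher at 0.71 ± 0.18, with an adjusted p just under the threshold. In that comparison 3.63% of all genes tested were called.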

How the data were processed

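RNA was measured by RNA-seq in 13 libraries. The deposited values are raw counts per gene symbol, made by the authors with TopHat2, HTSeq and the mm9 build, per the submitters' processing notes; tool versions, gene annotation and whether strand was used are not given there, so reads of overlapping antisense genes cannot be told apart. The labels describe an Illumina and a SOLiD platform without saying which library was run on which. RNA was depleted of ribosomal RNA, per the labels' protocols.

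Counts were analysed in R 4.3.3 with edgeR 4.0.16: the filter filterByExpr, with groups, a count of at least 10 and a total of at least 15, kept 16537 of 23366 genes, TMM factors were applied, and 1 quasi-likelihood model of 4 group means was fitted to all 13 libraries. Tests were two-sided with Benjamini-Hochberg adjustment over all genes tested, at 0.05. SE is the absolute log2 fold change divided by the square root of F. CPM are counts scaled to a library total of 1 M after TMM. CPM per kb divides by the union of exons in GENCODE M21 (GRCm38, later than mm9). Values within depth sets (divided at 20 M counts) come from 6 means of group and set. The code was tested on simulated counts. Those held no difference between depth sets and changed only genes with many counts, so depth sets and low counts went untested. Alternatives were limma 3.58.1 (voom), DESeq2 1.42.0, other scalings and filters, a depth-set term, a replicate block, and leaving out each library. Values in every library are given for members called over all libraries or within a set, and pathway genes are named if called, at most 4 a list by size. Members, lists and rules were chosen with earlier results of these data known. Some genes of the marker and pathway lists are counted there but not reported by name here.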

Additional observations from a re-analysis of the deposited data

Results flagged for a closer look

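Of 74 combinations of a member and a WT group, 5 held a library that stood apart from the others by Dixon's criterion, and chance gives about 1 in 20. In WT myotubes, Fzd4 was 29.4 CPM in replicate 2 and 2.57 to 4.28 CPM in the other 4 libraries. In WT myoblasts, Fzd1 was 35.3 CPM in replicate 3 against 25.7 to 26.6 CPM, and Fzd7 was 56.0 CPM in replicate 1 against 66.3 to 67.4 CPM. Wnt7a was 0.863 CPM in WT myoblast 3, from 7 counts, and 0 in the other WT myoblast libraries. Wisp2 was 0.0777 CPM in WT myoblast 2, from 4 counts, and 0 in the others. Where all other libraries are at 0, any read sets a library apart, so the 1 in 20 does not hold for Wnt7a and Wisp2.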

How the results depend on the processing

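Of 519 values, those of 23 results on single genes recomputed under the alternatives, none changed sign, 466 kept their side of the threshold, 25 passed it newly and 28 no longer passed it. Results on the other members are not among the 519 values, so the lack of sign changes does not cover them. Of these members Wnt7a, Fzd3, Fzd4, Fzd6, Lrp6 and Axin1 in WT differentiation differed in sign between the depth sets. The 12 calls on WT differentiation became 4 within the shallow set, all 4 of them among the 12, and were 11 to 15 under the other alternatives (11 to 13 leaving out 1 library each). The single call between genotypes in myotubes became 0 with library size alone, without a filter on low counts or with only the 2 groups fitted, 2 at an adjusted p under 0.1, 3 with the depth set as a term (Wnt9a, Wnt5a and Rspo3), 3 with limma voom, 4 with DESeq2, and 0 to 2 leaving out 1 library each. The 0 calls between genotypes in myoblasts became 2 within the shallow set and 3 with DESeq2. The 0 calls on dICR/dICR differentiation became 2 at an adjusted p under 0.1, 3 with the depth set as a term, 4 with DESeq2 and 6 with only the 2 groups fitted. Leaving out 1 library each gave 0 calls in both of these contrasts. For the difference between differentiation changes 0 calls were made under every alternative run. The dICR/dICR groups share no depth set, so neither of the last 2 contrasts has a value within a set.

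Whether replicate numbers pair the libraries could not be told. Over 14 same-numbered pairs the correlation of deviations from group means ranged from -0.411 to 0.518, with 5 over 0.1. Between WT myoblasts and myotubes, replicates 1, 2 and 4, each within a depth set, had 0.427, 0.518 and 0.517. Replicate 3, shallow against deep, had -0.411, so pairing and depth set cannot be told apart. In groups of 2 the deviations mirror each other. With the replicate number as a block the calls were 11 on WT differentiation (11 of the 12, without Sfrp2) and 0 in the other 4 contrasts. The shallow libraries limit what can be said of genes under about 1 CPM.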
